A study of Rattus norvegicus with 16 samples.

Results

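Windows of the genome dense in protein-protected sites (PPS) on the RNA of rat cortical neurons are described here. On the plus strands of chromosomes 11, 12, 16, 17, 18, 19 and 20, 46 windows of 100 kb held 6296 PPS, which is 17.3% of the 36392 PPS of those strands. The 46 windows were 2.63% of the 1748 windows with at least 1 PPS. They were chosen by measured values: PPS were assigned to windows by their midpoint, and a window was taken as dense when it held 100 or more PPS summed over 4 lists. A further 3 regions were left out beforehand, namely chromosome 17 at 75.3 to 75.7 Mb, chromosome 16 at 77.1 to 77.3 Mb and chromosome 11 at 34.6 to 34.7 Mb, which together held 1909 PPS. The number of PPS in a window, and the part of all PPS that the dense windows hold, therefore only describe the selection. The selection did not use the RNase that found each PPS, its score or its length. A PPS can join several peaks, and denser peaks have more chances to be joined. The share with both RNases and the length may therefore still depend on density. Differences between treatments are made of the same counts whose sum selected the windows, and agreement between lists goes up with density, so both are given as descriptions. The lists hold 329742 PPS in all, of which the members are 1.91%.

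RNA in a cell is covered by RNA-binding proteins that act in its splicing, transport, translation and decay. A protein bound to RNA, or a stretch of base pairing, shields the RNA from nucleases. Protein interaction profile sequencing (PIP-seq) separates these by digesting crosslinked RNA either while protein is present or after protein has been removed, so that a stretch protected only in the presence of protein is read out as a PPS. An RNase that cuts unpaired RNA and an RNase that cuts paired RNA are used in parallel, since each can see protein only on RNA that it would otherwise cut. In neurons, long 3′ untranslated regions and long introns are known to carry many protein-binding sites, and several sites of 1 transcript can lie close together.

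The primary neurons came from cortices of Sprague–Dawley rats at embryonic day 18. Control cultures were untreated, and the others received 10 µM NMDA, an agonist of the glutamate receptors of that name that is used to model excitotoxicity. The labels give 15 or 21 days in vitro and 4 or 24 hours of treatment without saying which applied to these libraries, and their extraction text describes purified nuclei of a tissue while the molecule is given as total RNA. The submitters asked how excitotoxicity alters RNA-protein interactions. In each group replicates 2 and 3 were present, and each replicate gave 4 libraries that were reduced to 1 list of PPS, so that 16 libraries stand behind the 4 lists. RNase ONE is the single-strand RNase (ssRNase) and RNase V1 the double-strand RNase (dsRNase). The list is the replicate throughout, with 2 lists per group. No label says that the replicates were separate cultures, so a p-value measures only the spread between lists, which may be technical. The smallest two-sided exact p for 2 lists against 2 is 0.333. Read depth is not given with the lists, and the score of a PPS is the submitters' own, with no stated scale.

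These 7 plus strands were used because elsewhere in the deposited lists blocks of peaks recur in a second list. Within the dense windows, between 4 and 18 PPS per pair of lists had identical coordinates, and at most 2 of those also had the same score. A block that had been moved whole from one list to another could not be found this way. NMDA replicate 2 stood apart in its RNase balance: 11.1% of its PPS in dense windows came from ssRNase alone, against 36.5% to 39.4% in the other lists. Positions are on the rn6 build, 1-based. No gene model or sequence of that build was used here, so windows are named by position, first in full and then by their start in Mb, and no gene or exon is assigned.

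The density was not the work of 1 list. A dense window held between 100 and 208 PPS over the 4 lists, with a median of 134.5, against a median of 23 in the 885 other windows with 8 to 99 PPS. Every dense window had at least 14 PPS in each list, and 34 of the 46 had at least 20 in each. The highest count of any window in a single list was 74. The members numbered 1576 and 1363 in control replicates 2 and 3, and 1643 and 1714 in NMDA replicates 2 and 3. Close to the threshold, 12 windows lay inside it by at most 4 PPS and 7 lay outside with 95 to 99 PPS. Just outside were, for example, chr16:85600001-85700000 and chr18:65400001-65500000, with 99 PPS each, and just inside was chr12:25200001-25300000 with 100.

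All 7 chromosomes had dense windows. Chromosome 18 had the most, 10 windows with 1379 PPS, and these were 26.1% of the PPS on its plus strand. Chromosome 11 had the fewest, 4 windows with 521 PPS or 11.6%. Chromosomes 16, 17 and 20 had 7 windows each, chromosome 12 had 6 and chromosome 19 had 5.

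The richest window was chr19:25000001-25100000, with 208 PPS, of which the control lists held 63 and 42 and the NMDA lists 44 and 59. Next came chr16:21000001-21100000, with 194 PPS spread as 56 and 39 in control and 60 and 39 in NMDA. In both, the control and NMDA counts overlapped. After these, chr19:26100001-26200000 and chr19:56200001-56300000 had 188 PPS each. The first of these held 45 and 43 in control against 57 and 43 in NMDA. The second held 44 and 41 in control against 67 and 36 in NMDA, so that its highest and its lowest list were both NMDA lists.

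In chr20:28000001-28100000, with 186 PPS, the control lists held 38 and 32 PPS and the NMDA lists 42 and 74. Here the single count of 74, in NMDA replicate 3, was the highest of all dense windows. A group of 4 windows of almost equal size followed, with 183 to 185 PPS. In chr18:27100001-27200000 the counts were 55 and 35 in control and 46 and 49 in NMDA. In chr12:50400001-50500000 they were 47 and 37 against 52 and 48, and in chr20:20400001-20500000 they were 48 and 42 against 44 and 50. The groups overlapped in the first and last of these 3 windows. In chr12 50.4 Mb they were 1 PPS apart as counted, and they overlapped after scaling to the size of each list. By contrast, chr16:61000001-61100000 had 30 and 35 PPS in the control lists against 52 and 66 under NMDA, with no overlap. Completing the 12 richest, chr18:27000001-27100000 had 53 and 38 against 38 and 44, chr18:2000001-2100000 had 49 and 38 against 33 and 45, and chr18:56200001-56300000 had 35 and 32 against 41 and 45.

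**Figure D1:**
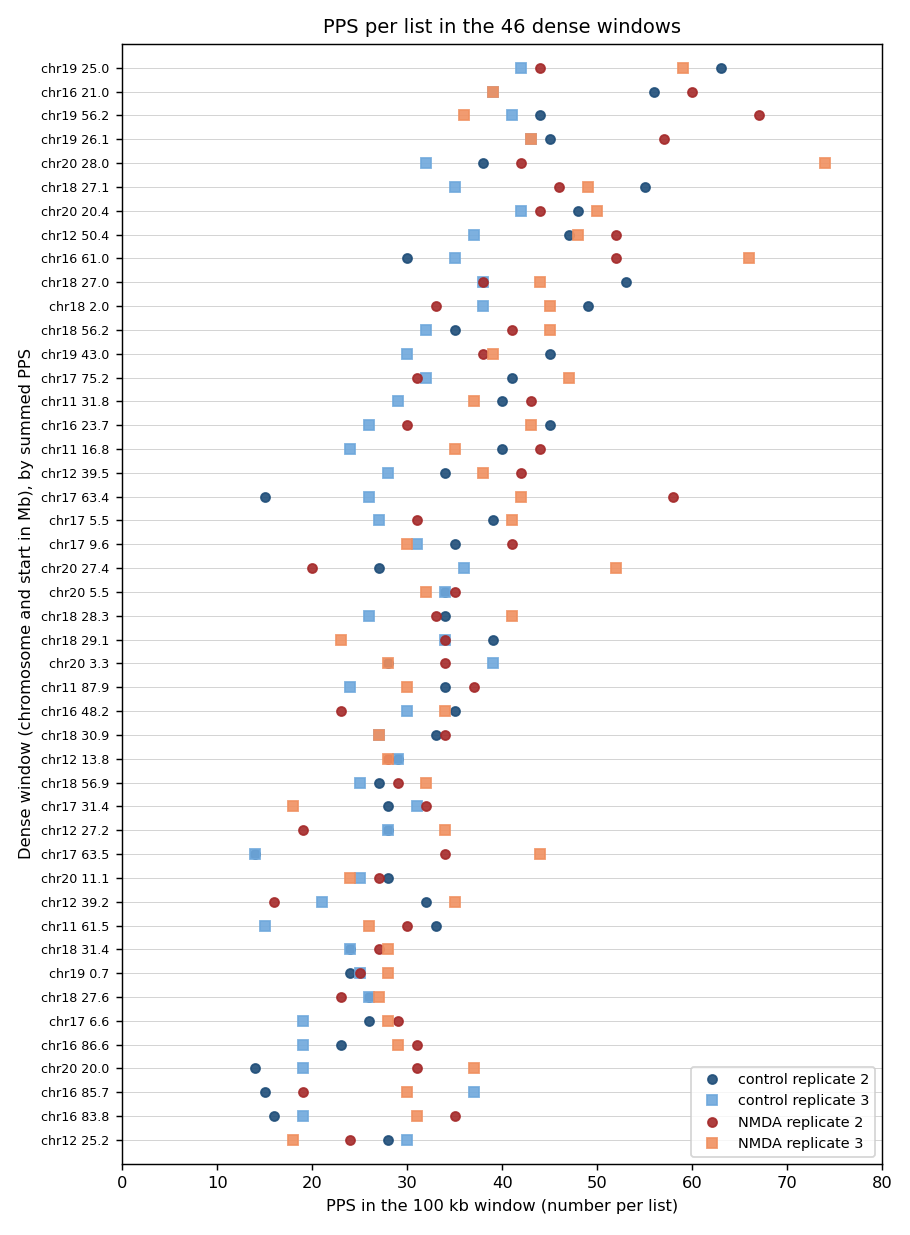
Number of PPS (horizontal axis) in each of the 46 dense 100 kb windows (vertical axis, ordered by the sum over lists), with 1 point for each of the 2 control and 2 NMDA lists. Every window has at least 14 PPS in every list, and the single highest count is the 74 of NMDA replicate 3 in chr20 28.0 Mb.

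Dense windows mostly stood alone. Of the 46, 42 had no adjoining dense window, and the remaining 4 formed 2 runs of 2 windows each. The 92 windows flanking a dense window on either side had a median of 10.5 PPS, and in 35 cases both flanking windows held under 50% of the PPS of the dense one. A single dense window, on chromosome 17 at 75.2 Mb, lay beside a region left out beforehand, and its neighbour there held 461 PPS.

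The 2 runs differed in RNase balance, in agreement between lists and in their flanking windows. The run on chromosome 18, chr18:27000001-27200000, held 358 PPS, and the control lists contributed 108 and 73 against 84 and 93 from the NMDA lists. Its flanking windows held 0 PPS on both sides, and its first and last PPS midpoints were 27011765 and 27120665. Peaks of ssRNase alone made up 36.6% of its PPS, dsRNase alone 39.1% and both RNases 24.3%, and 89.7% of its PPS overlapped a PPS of another list. The run on chromosome 17, chr17:63400001-63600000, held 247 PPS, with 29 and 40 in control and 92 and 86 in NMDA, so that the groups did not overlap. There dsRNase alone gave 91.1% of PPS, ssRNase alone 5.67% and both RNases 3.24%, and only 43.3% of PPS overlapped another list. Its flanking windows held 38 and 17 PPS, against 0 on both sides of the other run. Its first and last PPS midpoints were 63426523 and 63597786.

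**Figure D2:**
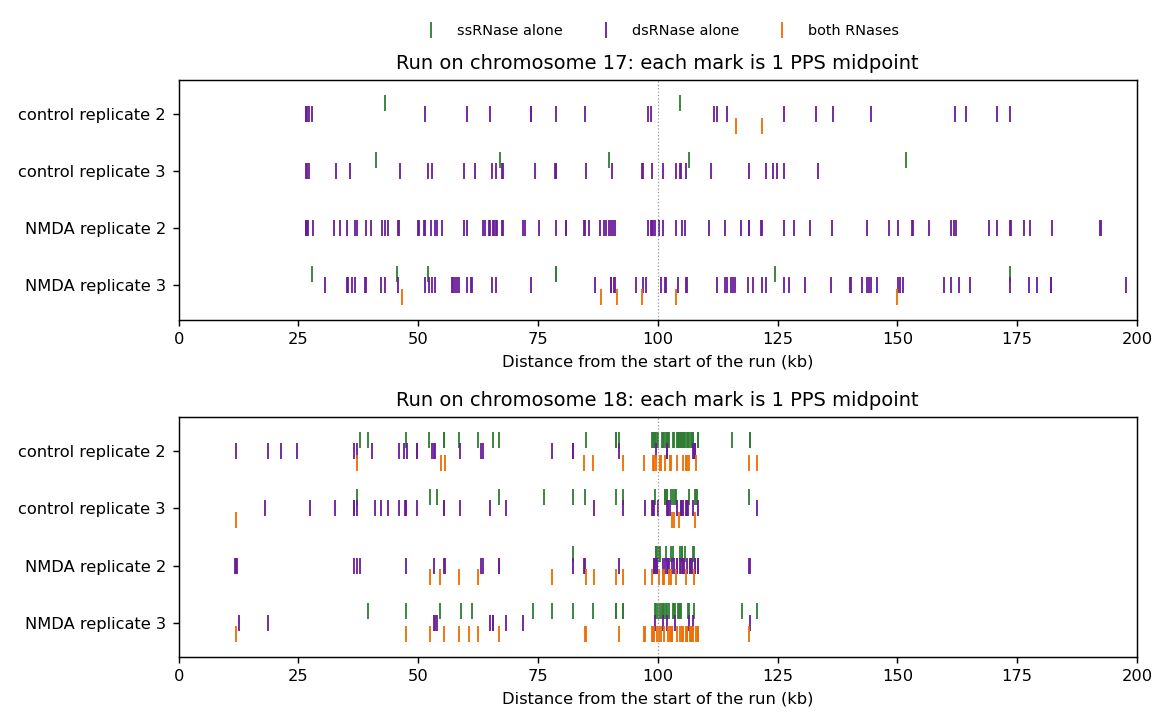
Positions of all PPS in the 2 runs of adjoining dense windows, as distance from the start of the run in kb (horizontal axis) for each list (rows), coloured by the RNase whose peaks formed the PPS, with a dotted line where the 2 windows meet. On chromosome 18 the PPS of all 4 lists and both RNases pile up at about 100 kb, whereas on chromosome 17 PPS of dsRNase are scattered and are more numerous in the NMDA lists (92 and 86) than in the control lists (29 and 40).

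PPS were packed into short stretches in many dense windows, but not in all. In 7 windows each of the 10 bins of 10 kb had PPS. The 10 kb bin with most PPS held at the lowest 13.8% of its window's PPS, with a median of 40.8%, and in 13 windows it held over 50%. The extreme was chr18:27100001-27110000, which held 172 of the 185 PPS of its window (93.0%), with 50, 33, 44 and 45 in control replicates 2 and 3 and NMDA replicates 2 and 3. PPS of the 4 lists together covered 72.3% of the bases of that bin, and 98.3% of them overlapped another list. Next were chr16:23780001-23790000 with 120 of 144 PPS, chr17:6670001-6680000 with 78 of 102 and chr18:56910001-56920000 with 86 of 113. The bin chr12:50450001-50460000 held 133 of 184 PPS and differed from the others in its RNase balance, with 69.2% of its PPS from dsRNase alone and 12.8% from ssRNase alone. At the level of 1 kb, a window of 100 kb had PPS in between 12 and 56 of its bins. Per list, PPS covered 1.59% to 2.82% of the bases of the dense windows, against 0.372% to 0.468% of the other windows. Since the windows were selected for their number of PPS, this difference follows from the selection.

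Most PPS of the dense windows were made of a single peak: 5313 of 6296, or 84.4%. All others joined peaks of both RNases. In control replicate 2, ssRNase alone gave 39.4% of PPS, dsRNase alone 43.8% and both 16.8%. In control replicate 3 these shares were 36.5%, 54.0% and 9.46%. In NMDA replicate 2 they were 11.1%, 76.9% and 12.1%, and in NMDA replicate 3 they were 37.0%, 40.1% and 22.8%. NMDA replicate 2 thus had fewer ssRNase sites than the other 3 lists, which lay close together. The same held outside the dense windows, as given above. It also held window by window, since NMDA replicate 2 had the lowest ssRNase share in 42 of the 46 windows.

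Summed over lists, dsRNase alone gave more PPS than ssRNase alone in 37 of the dense windows, fewer in 7 and equal numbers in the other two. The highest shares of ssRNase alone were 57.7% in chr20:11100001-11200000, 56.6% in chr16:48200001-48300000 and 52.9% in chr12:39200001-39300000. The lowest were 4.59% in chr12:27200001-27300000, 4.72% in chr17 63.5 Mb and 6.38% in chr17 63.4 Mb. The windows with the lowest shares include both windows of the chromosome 17 run.

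Sites seen by both RNases were more frequent in dense windows than elsewhere. In dense windows 16.8%, 9.46%, 12.1% and 22.8% of PPS had peaks of both RNases in control replicates 2 and 3 and NMDA replicates 2 and 3. In the other windows of the same lists the shares were 13.6%, 6.92%, 10.1% and 16.03%. The mean was 15.3% ± 5.87 (SD, n = 4 lists) in dense and 11.6% ± 3.98 in other windows, and the difference of 3.64 percentage points (SD 2.16) was positive in 4 of 4 lists. An exact two-sided sign-flip permutation test over the 4 lists gave p = 0.125, the smallest value that 4 lists allow. A PPS with both RNases joins several peaks, and denser windows give peaks more chances to be joined. This share is thus not independent of the selection, and the test cannot separate it from density. Because the 4 lists share the same windows, the direction in every list does not amount to 4 independent sets of windows. The share also went up in steps over these classes of density: its mean over lists was 9.20% in 473 windows of 8 to 24 PPS, 11.6% in 262 windows of 25 to 49, 13.4% in 150 windows of 50 to 99 and 15.3% in the dense windows. Against windows of 50 to 99 PPS alone the difference was 1.92 points, with windows starting 50 kb later it was 5.95 and with 50 kb windows 6.33, positive in direction each time. The steps did not extend to the regions left out beforehand, which held 1909 PPS in 7 windows. Their shares were 8.15%, 1.98%, 2.72% and 11.2% in the same order of lists, each below the dense and the other windows of its list.

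PPS of dense windows were longer by a few bases. The median length was 58, 48, 52 and 58 bp in the 4 lists, in the order given above, against 54, 46, 50 and 52 bp in the other windows. The mean difference was 3.50 bp (SD 1.91), positive in 4 of 4 lists, with p = 0.125 in the same exact permutation test. With single-peak PPS it was 1.75 bp (exact permutation p = 0.25), and against windows of 50 to 99 PPS it was 2.25 bp. Joined peaks give a longer PPS, so length may also be tied to the density used for selection. The share of ssRNase alone was lower in dense windows in 3 lists and higher in control replicate 2, with a mean difference of -1.49 percentage points (SD 2.52, exact permutation p = 0.375), so no direction was shared by all lists. Its sign also turned with 50 kb windows (3.18 points), with windows shifted by 50 kb (0.996) and with single-peak PPS (0.120). Of these 3 measures none passed a threshold of 0.05, which 4 lists cannot reach.

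**Figure D3:**
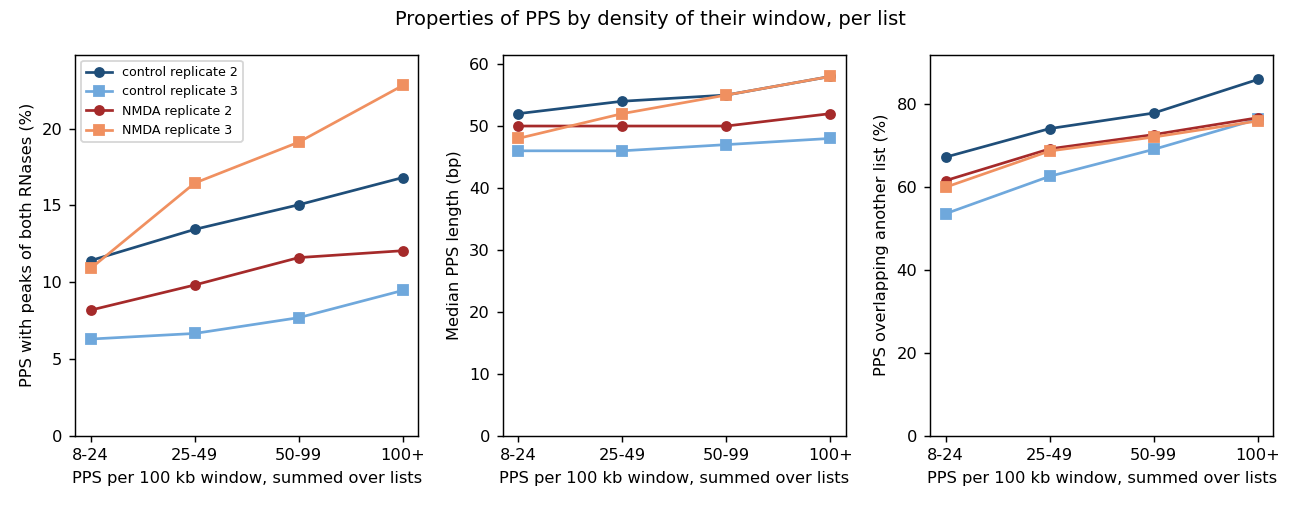
Share of PPS with peaks of both RNases in percent (left), median PPS length in bp (middle) and share of PPS overlapping another list in percent (right) against the number of PPS in the window summed over lists, in 4 classes of which 100+ is the dense windows, with 1 line per list. The share of both RNases is higher in dense windows than in windows of 8 to 24 PPS in all 4 lists (means 15.3% and 9.20%).

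Scores in dense windows were close to those elsewhere. The median score was 7, 6.82, 7.43 and 7.43 in dense windows and 6.82, 6.82, 7.43 and 6.82 in the others, so that control replicate 2 and NMDA replicate 3 had higher medians in dense windows while the medians of the other lists were equal. The mean difference was 0.198 (SD 0.288, exact sign-flip permutation p = 0.5). Scores took few values: the most common was 5.40 in the control lists and 5.61 in the NMDA lists, and it was held by 15.4% to 30.2% of the PPS of a list. The upper end differed more between lists, with highest scores of 44.6, 23.6, 58.96 and 86.02. PPS with peaks of both RNases had medians of 9.98, 8.20, 11.26 and 11.49, above those of either RNase alone in each list. A PPS of several peaks takes the highest of their scores, so it has more than 1 chance at a high value.

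A few very long PPS lay in dense windows, above all in NMDA replicate 3. PPS of 150 bp or more made up 4.57% and 0.734% of the members in control replicates 2 and 3, and 1.77% and 7.58% in NMDA replicates 2 and 3. In the other windows the shares were 2.28%, 0.481%, 0.932% and 4.01%, so NMDA replicate 3 was highest there too. The longest was chr17:31443378-31444685 in NMDA replicate 3, which spanned 1308 bp, joined 15 peaks and had the highest score of all members, 86.02. Its window, chr17:31400001-31500000, held 109 PPS and had the highest share with both RNases (33.0%), the highest median score (10.82) and the highest median length (79 bp) of the 46. In that window NMDA replicate 3 had 18 PPS, 13 of them with both RNases, against 28, 31 and 32 PPS in the other lists.

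Agreement between lists was high in dense windows. A PPS of another list, sharing at least 1 bp, was met by 85.9% and 76.3% of PPS in control replicates 2 and 3 and by 76.6% and 75.8% in NMDA replicates 2 and 3. In the other windows the shares were 73.7%, 62.1%, 68.5% and 67.6%. The mean difference was 10.7 percentage points and was positive in each list. No test was made of it, because windows that hold more PPS give more chances of overlap. Against windows of 50 to 99 PPS, the nearest class in density, the difference was 5.83 points.

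Agreement followed the RNase. PPS with peaks of both RNases overlapped another list in 95.3% to 99.5% of cases, ssRNase-only PPS in 79.1% to 91.2% and dsRNase-only PPS in 55.5% to 81.9%. The lowest of these was the dsRNase-only set of NMDA replicate 3. PPS of both RNases are also longer, with medians of 83 to 106 bp against 41 to 50 bp for dsRNase alone, and a longer PPS has more bases with which to overlap.

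Lists of the same treatment did not overlap more than lists of different treatments. The mean of the share of each list overlapping the other was 48.4% for both control lists and 53.8% for both NMDA lists. Across treatments it was 57.2% for control replicate 2 with NMDA replicate 2 and 61.7% for control replicate 2 with NMDA replicate 3. For control replicate 3 it was 44.8% with NMDA replicate 2 and 51.4% with NMDA replicate 3. The values for pairs within a treatment thus lie inside the range of those across treatments.

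Joining overlapping PPS of all lists gave 2759 distinct sites in the dense windows, between 18 and 103 per window with a median of 59.5. Of these, 1344 (48.7%) were in 1 list, 600 in 2, 416 in 3 and 399 (14.5%) in all 4. In the other windows 7.53% of 14133 sites were in all 4 lists and 58.4% in 1. Sites in all 4 lists were found in 45 of the 46 dense windows, with a median of 8 per window. The most, 20, were in chr12 50.4 Mb, and the window with 0 was chr16:85700001-85800000. Of the 399 sites, 307 had peaks of both RNases in at least 1 list, 175 had a dsRNase peak in every list and 108 had an ssRNase peak in every list. Their median length was 141 bp, against 46 bp for sites in 1 list, and joining PPS of several lists itself lengthens a site.

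The 5 sites whose lowest score over the 4 lists was highest are given with their scores in control replicates 2 and 3 and NMDA replicates 2 and 3. First was chr17:31443378-31444685, with scores of 17.68, 21.35, 29.61 and 86.02. It coincides in extent with the longest PPS described above, and all 4 lists had peaks of both RNases there. Second was chr19:56228377-56229623, spanning 1247 bp, with scores of 40.66, 16.33, 55.74 and 34.45. Next was chr17:31495768-31496825, in the same window as the first, with scores of 14.61, 19.36, 34.45 and 49.43. These 2 sites on chromosome 17 had higher scores in both NMDA lists than in both control lists, but scores have no stated scale between lists and no test was made. After it came chr18:28382954-28383317, with scores of 23.54, 15.39, 19.37 and 13.7, and here the order of the lists was different. Last was chr16:21073367-21073511, with scores of 13.51, 15.39, 23.48 and 28.83. Here too both NMDA lists were above both control lists, with the same limit on scores between lists.

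The dense windows were not of 1 kind. In 6 of them over 80% of PPS came from dsRNase alone: chr12 27.2 Mb, chr16 85.7 Mb, chr17 63.4 Mb, chr17 63.5 Mb, chr17 75.2 Mb and chr20:20000001-20100000. This grouping was set after the values were seen and is a description without a test. The 6 windows held 709 PPS, 11.3% of the members, and 85.1% to 91.5% of their PPS were from dsRNase alone, against 29.7% to 71.2% in the other 40. They had few PPS with both RNases, 0.990% to 4.59% against 3.85% to 33.0%. Their PPS overlapped another list in 35.8% to 53.0% of cases, against 63.4% to 97.3%, and the ranges did not meet. The midpoints of all 4 lists were pooled to measure spacing. In the 6 windows the median distance between neighbouring midpoints was 186.5 to 572.5 bp, against 20 to 107 bp in the other 40. A site found in several lists gives short distances, so this measure is tied to the overlap and is not a separate property. Their PPS, again over all lists, fell in 51 to 56 of the 100 bins of 1 kb, against 12 to 52. Median scores were 5.61 to 6.82 in the 6 windows and 6.82 to 10.82 in the rest. By list, the share of dsRNase alone in the 6 windows was 89.0% and 82.7% in control against 95.8% and 85.0% in NMDA. The windows were grouped by this share summed over the same lists, so these values only describe the grouping. The 7 windows of the regions left out beforehand had shares of dsRNase alone of 62.8% to 89.6% and overlaps of 42.1% to 76.6%, which reached into the ranges of both kinds.

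**Figure D4:**
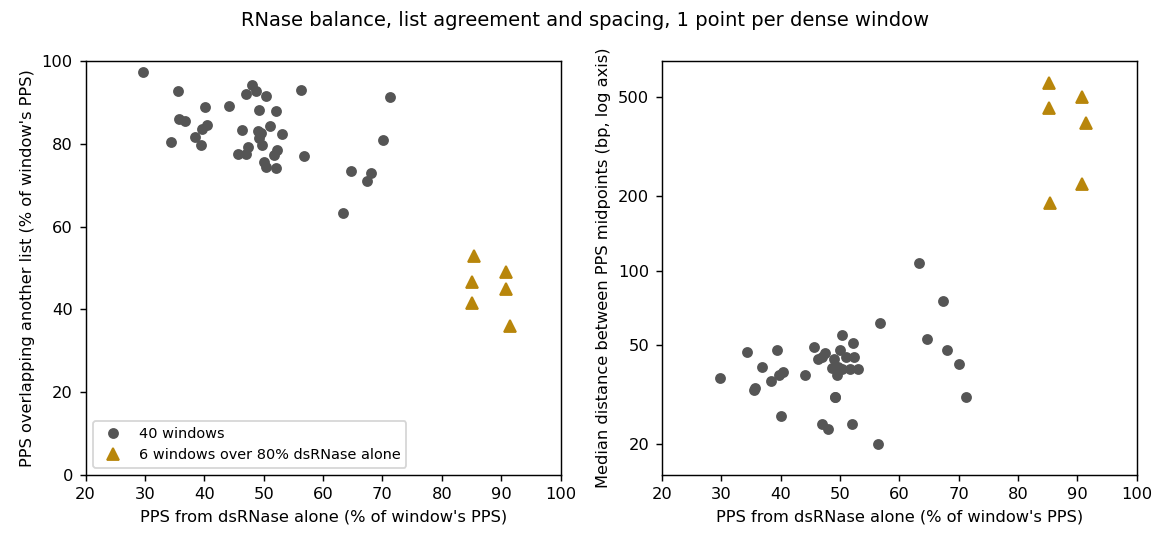
Each point is 1 of the 46 dense windows, placed by its share of PPS from dsRNase alone in percent (horizontal axes), against its share of PPS overlapping another list in percent (left) and the median distance between neighbouring PPS midpoints in bp on a log axis (right). The 6 windows above 80% dsRNase alone have overlaps of 35.8% to 53.0% and distances of 186.5 to 572.5 bp. Both ranges lie apart from those of the other 40 windows. Midpoints are pooled over the 4 lists, so the distance is not independent of the overlap.

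Over the 46 windows, properties of the PPS went together. The share with both RNases correlated with the median score (Pearson r = 0.80, Spearman rho = 0.83, n = 46 windows) and with the share overlapping another list (r = 0.78, rho = 0.84). The share of dsRNase alone correlated negatively with overlap (r = -0.83, rho = -0.63). The fraction of PPS in the richest 10 kb correlated with overlap as well (r = 0.63, rho = 0.64). In contrast, the number of PPS in a window was only weakly related to the share with both RNases (r = 0.22, rho = 0.24) and to overlap (r = 0.24, rho = 0.15), within the narrow range of 100 to 208 PPS that the selection leaves. All these points come from the same 4 lists and share their libraries and peak calling, so the values are descriptive and carry no p.

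The comparison of NMDA with control asked whether treated neurons had more or fewer PPS in these windows. Since a window with many PPS in 1 group reaches the threshold more easily, the counts of members are given for both groups without reading a treatment effect from them. Of the 46 windows, 35 had at least 50 PPS from each group, 9 had fewer than 50 from the control lists and 2 fewer than 50 from the NMDA lists. As a whole, dense windows held a similar part of each list: 18.0% and 15.3% of the strand PPS in control replicates 2 and 3 and 17.9% and 18.0% in NMDA replicates 2 and 3. The means were 16.6% ± 1.87 (SD, n = 2) in control and 17.9% ± 0.0838 in NMDA. Control replicate 3 alone was low, and without it the difference of 1.31 percentage points became -0.0167. The number of PPS was 1469.5 ± 150.6 in control and 1678.5 ± 50.2 in NMDA, but the NMDA lists were also larger over the whole of these strands, with 9189 and 9523 PPS against 8777 and 8903.

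The RNase balance of the dense windows differed more within the NMDA group than between the groups. The share of ssRNase alone was 38.0% ± 2.03 in control and 24.1% ± 18.4 in NMDA (exact permutation p = 0.667), and without NMDA replicate 2 the difference of -13.9 points became -0.922. The share of dsRNase alone was 48.9% ± 7.22 in control and 58.5% ± 26.0 in NMDA (exact permutation p = 1), and without NMDA replicate 2 the difference of 9.62 points became -8.75. The share of both RNases was 13.1% ± 5.20 and 17.4% ± 7.61 (exact permutation p = 0.667), and its difference of 4.29 points was -1.09 without NMDA replicate 3. None of these 3 differences exceeded the spread between lists. Median scores were 6.91 ± 0.127 in control and 7.43 ± 0 in NMDA (exact permutation p = 0.333), with no overlap, but the commonest score values differ between the lists, as given above. Median lengths were 53.0 ± 7.07 bp and 55.0 ± 4.24 bp (exact permutation p = 1), and their difference of 2 bp turned to -3 bp without control replicate 3 and to -1 bp without NMDA replicate 3.

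Window by window, limma was run on log2(PPS per 10000 PPS + 0.5) over all 938 windows of these strands that held at least 8 PPS. At a Benjamini-Hochberg adjusted p under 0.05, limma called 0 of the 46 dense windows, as it called 0% of the 938. At an unadjusted p under 0.05 there were 5 dense windows, 10.9% of the 46, against 10% of all windows tested. All 5 were higher in NMDA, and 4 of them had fewer than 50 PPS from the control lists, so that they were members only through their NMDA counts. Both NMDA lists were above both control lists, after scaling to the size of each list, in 11 dense windows (23.9%), against 15.5% of all windows, and both were below in 5 (10.9%), against 24.2%. Among the 35 windows with at least 50 PPS from each group, both NMDA lists were above both control lists in 5, below in 4 and overlapping in 26. Because the selection used the sum of these counts, nothing is read from the shares.

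The 3 largest positive differences were in windows of the dsRNase kind. All 3 reached the threshold through the group in which they were high: the control lists gave 28 of 106 PPS in chr17 63.5 Mb, 41 of 141 in chr17 63.4 Mb and 33 of 101 in chr20 20 Mb. In chr17 63.5 Mb the control lists held 14 and 14 PPS and the NMDA lists 34 and 44. The log2 difference was 1.36 with a standard error (SE) of 0.234, with a limma adjusted p of 0.336. In chr17 63.4 Mb, which adjoins it, the counts were 15 and 26 in control and 58 and 42 in NMDA. There the log2 difference was 1.22 (SE 0.347, limma adjusted p = 0.485). In both windows each NMDA list exceeded each control list, and the lower NMDA list exceeded the higher control list by at least 16 PPS. In chr20 20 Mb the counts were 14 and 19 against 31 and 37, with a log2 difference of 0.95 (SE 0.255, limma adjusted p = 0.485).

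The chromosome 17 run rested on dsRNase peaks. In chr17 63.4 Mb, dsRNase alone gave 14 and 23 PPS in the control lists against 58 and 33 in those of NMDA. In chr17 63.5 Mb it gave 11 and 12 against 34 and 40. NMDA replicate 2, the list with few ssRNase sites, had 0 ssRNase-only PPS in either window, while NMDA replicate 3, whose overall ssRNase share was 37.0%, had 5 and 2. In these 2 windows, however, dsRNase alone gave 33 of 42 and 40 of 44 PPS of NMDA replicate 3. Whether the RNase balance of a list bears on these counts was not tested. Without NMDA replicate 2 the log2 differences were 0.96 and 1.52. With only PPS that hold a dsRNase peak they were 1.01 and 1.23. With only PPS that hold an ssRNase peak they were -0.63 (SE 1.98) and -1.62 (SE 1.93), and no list had more than 9 of these per window. The counts were 1 and 3 in control against 0 and 9 in NMDA, and 3 and 2 against 0 and 4. A count of 0, here in NMDA replicate 2, weighs heavily on the log scale, so no direction is read from these values. Without control replicate 3 the log2 differences were 1.60 in chr17 63.4 Mb and 1.35 in chr17 63.5 Mb. Without control replicate 2 they were 0.84 and 1.37. A single list then stood for a group, so no call is read from these fits. Both windows reached the threshold through their NMDA counts, so these values are descriptions. In the fit of all 4 lists neither window was called.

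Of the other windows at an unadjusted limma p under 0.05, chr16:83800001-83900000 had 16 and 19 PPS in the control lists against 35 and 31 under NMDA, a log2 difference of 0.82 (SE 0.233), and it too reached the threshold only through the NMDA lists, with 35 of 101 PPS from control. The remaining one, chr16 61.0 Mb with 30 and 35 against 52 and 66, had a log2 difference of 0.76 (SE 0.217). Both had a limma adjusted p of 0.485, and neither belonged to the 6 windows of mostly dsRNase.

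The 3 largest negative differences were smaller. In chr12 25.2 Mb the control lists held 28 and 30 PPS and the NMDA lists 24 and 18, with a log2 difference of -0.55 (SE 0.255, limma adjusted p = 0.581). This window reached the threshold through its control counts, which gave 58 of its 100 PPS. In chr18:29100001-29200000 the counts were 39 and 34 against 34 and 23, with a log2 difference of -0.46 (SE 0.282, limma adjusted p = 0.657). In chr17 31.4 Mb they were 28 and 31 against 32 and 18, so the groups overlapped, with a log2 difference of -0.37 (SE 0.341, limma adjusted p = 0.846). All 3 were smaller without NMDA replicate 3, at -0.32, -0.15 and 0.0624 in the order given, and for the last this turned the sign.

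**Figure D5:**
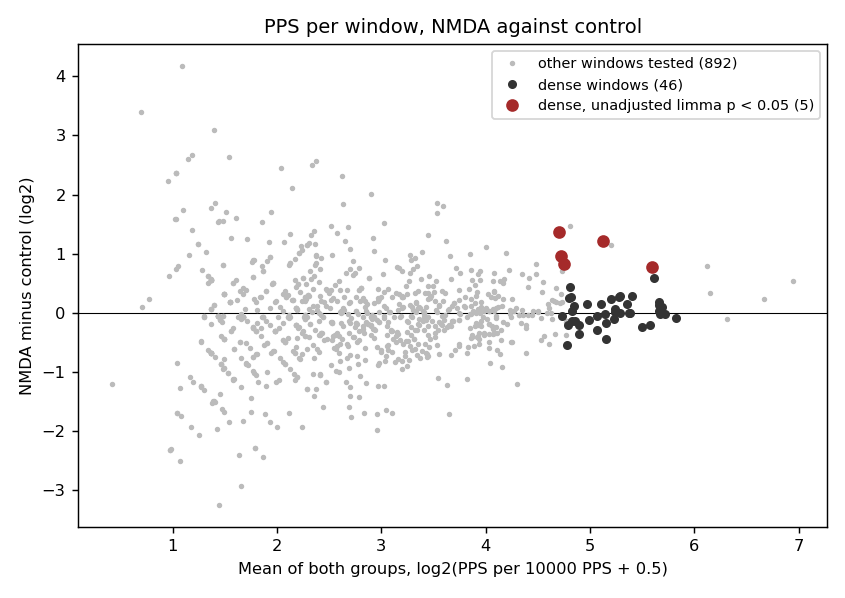
Log2 difference of NMDA minus control in PPS per 10000 PPS (vertical axis) against the mean log2 level of both groups (horizontal axis) for the 938 windows tested, with dense windows in black and the 5 of them at an unadjusted limma p under 0.05 in red. The red points lie between 0.76 and 1.36, and no window had an adjusted p under 0.05.

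At the level of sites, treatment-specific presence was rare in dense windows. Sites found in both NMDA lists and in no control list numbered 91, or 3.30% of the 2759, and sites found in both control lists and in no NMDA list numbered 58, or 2.10%. In the other windows the corresponding shares were 3.01% and 3.21%. Sites found in a single list were far more frequent, with 223 and 323 in control replicates 2 and 3 and 384 and 414 in NMDA replicates 2 and 3. The difference between these shares in dense and other windows was not tested.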

How the data were processed

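PIP-seq libraries of control and NMDA-treated neurons were reduced by the authors to 4 lists of PPS, 1 per replicate. Per the labels, the PPS are CSAR calls at an FDR of 5%. TopHat2 2.0.10, cutadapt 1.2.1 and the rn6 genome are named, without a role, in the submitters' processing notes. The deposited score of each peak has no stated scale, and a PPS of several peaks was given their highest score. Reads, structure profiles and messenger RNA were not analysed here. No sequence is printed because no rn6 sequence was used.

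Groups came from sample titles. PPS were assigned by midpoint to plus-strand windows of 100 kb, and limma 3.58.1 (R 4.3.3; lmFit, eBayes with trend) was run on log2(PPS per 10000 PPS + 0.5), with Benjamini-Hochberg adjustment over 938 windows. On this scale the added 0.5 shrinks the change of sparse windows, while a count of 0 in 1 list can enlarge or reverse it. Other comparisons used exact permutation tests over lists (scipy 1.17.1, Python 3.11.15). Overlap required 1 bp on the same strand. Code was tested on simulated data. Deviations of same-numbered lists correlated at 0.119 over the 938 windows, with only 2 pairs, so the numbers were not taken to pair the lists.

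The members and the settings were chosen with earlier results of these data known. Named windows were the runs, the 12 richest, the 3 highest and 3 lowest in ssRNase share, the 3 largest differences per direction and examples next to the threshold. The 5 named sites had the highest lowest-list score. Windows named beside these were chosen after their values were seen. Alternatives covered window threshold, size and offset, score, single-peak PPS, pseudocount, filter, scaling, trend, leaving out each list and the replicate block. Subsets by RNase, the comparison with windows of 50 to 99 PPS and the removal of the 6 windows with mostly dsRNase were chosen after seeing the data.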

Additional observations from a re-analysis of the deposited data

How the results depend on the processing

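Of 239 recomputed values of 22 results under 21 settings, 210 kept their direction and their side of the threshold, or moved by less than the spread between lists. For the exact permutation tests that side could not change, since their smallest p is 0.333 or 0.125. A kept value can also have shrunk. The NMDA minus control difference in ssRNase alone went from -13.9 to -0.922 points without NMDA replicate 2. The 210 therefore do not measure how stable the sizes are. The number of dense windows was 14 at a threshold of 150 PPS and 146 with 50 kb windows of 50 PPS. Leaving out each list in turn, the NMDA minus control difference in the share of PPS in dense windows ranged from -0.0167 to 2.63 points. It ranged from -8.75 to 27.98 points for dsRNase alone and from -1.09 to 9.67 points for both RNases. For median length it ranged from -3 to 7 bp. Each of these settings left a single list in 1 group, so no limma calls are given for them. The difference between dense and other windows in ssRNase alone turned to 0.996 points with windows starting 50 kb later, 3.18 points with 50 kb windows and 0.120 points with single-peak PPS. The share with both RNases cannot be given for single-peak PPS, which hold 1 RNase each. The difference in overlap with another list was 14.6 points with shifted windows and 16.7 with 50 kb windows. With 2 settings chosen after seeing the data it was 5.83 points against windows of 50 to 99 PPS and 14.7 points without the 6 windows of mostly dsRNase. The log2 differences of chr17 63.4 Mb, chr17 63.5 Mb and chr17 31.4 Mb were -0.63, -1.62 and 0.19 with PPS holding an ssRNase peak, also chosen after seeing the data. In chr17 63.4 Mb and chr17 63.5 Mb each list had only 0 to 9 of these PPS. The difference of chr17 31.4 Mb ranged from -0.80 to 0.0624 when each list was left out. With the replicate number as a block (replicate block), limma called 0 dense windows, with 5 at an unadjusted p under 0.05, and no call changed. The cause of these changes was not tested. The labels do not say that replicate numbers mark a shared culture. With 2 lists per group and no read depth, small differences could not be detected.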

Other observations

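The minus strand of the same 46 windows held 328 PPS, against 6296 on the plus strand. The numbers per list were 95 and 54 in control replicates 2 and 3 and 58 and 121 in NMDA replicates 2 and 3. All 46 windows had more PPS on the plus than on the minus strand, and in 41 the plus strand had at least 5 times as many. The median number of minus-strand PPS per window was 0.5. The most were in chr20:27400001-27500000, with 73 minus-strand PPS beside 135 on the plus strand, and in chr18 27.1 Mb, with 63 beside 185. In the latter the minus-strand PPS were spread evenly over lists, with 15 and 16 in control and 14 and 18 in NMDA. In the former they numbered 22 and 1 in control and 11 and 39 in NMDA. Of the 328, 26 (7.93%) had the same position and score as a PPS of another list, so the minus-strand counts of the lists are not independent and were not compared between treatments.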
